A study of Danio rerio with 6 samples.

Results

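Lysosomal hydrolases are the enzymes that break down what macrophages take up, and the genes described here encode proteases, glycosidases, sulfatases, lipid hydrolases and phosphatases of the lysosome, with the proteins that activate or deliver them. Their members were chosen as a list of 51 zebrafish gene symbols, with cathepsins S, L and K and the proton pump left out. By symbol, 49 were matched to 51 Ensembl gene IDs among the 31962 in the count files, and 50 of these IDs had enough counts to be tested, out of 16499 tested genes in all. The 2 remaining symbols, gba and arsb, were not matched and are not analysed here. Where a symbol stands for more than 1 ID (asah1a and asah1b both as ASAH1, fuca1.1 as FUCA1, ppt2 as PPT2), the ID is given with the value.

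The RNA came from macrophages of zebrafish larvae that carry the red reporter mpeg1:mCherryF, in which the promoter of the macrophage gene mpeg1 marks the cells to be sorted. Both groups carried the reporter, and they differed in genotype: cxcr3.2-/- larvae, homozygous mutant in the chemokine receptor gene cxcr3.2, and cxcr3.2+/+ larvae, the wild type. Each group had 3 libraries, each from a separate pool of 150 to 200 larvae, aged 6 days after fertilisation in the sample characteristics and 5 days in the protocol. The comparison asks which transcripts of larval macrophages differ when this receptor gene is mutated. Because each pool is one bulk sample, fewer cells of a type and less RNA per cell cannot be told apart.

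Lysosomal enzymes are made in the endoplasmic reticulum, tagged in the Golgi with mannose 6-phosphate and carried by its receptors to endosomes, where many proenzymes are cut into their active form at acid pH. Cathepsins and legumain digest proteins, glycosidases and sulfatases take sugar chains apart step by step, and saposins and the GM2 activator present lipids to their hydrolases. In mammals, loss of single enzymes causes storage of their substrates, and macrophages are among the cells that store them. Enzyme roles given below are those known from mammals.

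Total gene counts per library lay between 6239470 and 9607009. All 21 macrophage markers tested were detected in every library; their summed level was 6912 to 8123 CPM (counts scaled to a common library size, by TMM) in wild type and 11037 to 11116 CPM in mutant libraries, of which the lipid carrier gene apoeb alone held 2075 to 2858 and 4692 to 5551 CPM. These markers went both ways: 12 of 21 had a positive log2 fold change and 9 a negative one, where 47.9% of all genes tested were positive. Of the 21, 8 lay entirely above the wild type and 3 entirely below, where 10.2% and 10.4% of all genes did. The 8 entirely above were lcp1, coro1a, spi1b, apoeb, c1qa, c1qc, slc7a7 and cd68. Of these, spi1b measured 336, 356 and 392 CPM in wild type and 560, 589 and 532 CPM in mutant libraries. The 3 entirely below were csf1rb, irf8 and a gene matched to mpeg1 (ENSDARG00000043093). That gene measured 117, 135 and 103 CPM in wild type and 27.7, 55.6 and 64.7 CPM in mutant libraries. Another gene matched to mpeg1 (ENSDARG00000055290) overlapped, at 313, 400 and 295 against 268, 348 and 285 CPM. At an adjusted p under 0.05, edgeR called 2 of the 21 markers higher and 0 lower, where 0.309% and 0.885% of all genes were. DESeq2 called 7 higher and 2 lower, where 2.81% and 2.84% of all genes were. Markers of other cell types were detected too. Epidermal markers summed to 6067 to 7021 CPM in wild type and 5282 to 5572 CPM in mutant libraries, without overlap, whereas neutrophil markers overlapped (881 to 1356 and 1123 to 2193 CPM). Of the neutrophil sums, mmp9 held 461 to 722 CPM in wild type and 719 to 1143 CPM in mutant libraries. The neutrophil marker lyz stood at 668 CPM in mutant replicate 2 and at 31.6 to 232 CPM in the remaining 5 libraries. Neural and retinal markers summed to 3736 to 4143 and 2021 to 2386 CPM, of which marcksl1b alone held 3366 to 3778 and 1702 to 2039 CPM; without it the sums overlapped, at 304 to 370 and 319 to 467 CPM. Their part in the results below was not tested. For muscle markers, mutant replicate 2 stood at 1902 CPM and the remaining 5 libraries at 249 to 310 CPM. For liver and intestine markers, wild type replicate 1 stood at 1499 CPM and the remaining 5 libraries at 609 to 905 CPM. Erythroid markers overlapped, at 141 to 209 CPM in wild type and 195 to 363 CPM in mutant libraries. The part of these 3 lists was not tested either. The 102 IDs with heat shock or co-chaperone names took 12.1%, 23.9% and 14.7% of the reads counted in wild type libraries 1, 2 and 3 and 4.0% to 4.4% in mutant libraries. The transcript of cxcr3.2 itself did not differ detectably (173 ± 17.8 CPM in the wild type and 175 ± 25.8 CPM in mutant, SD, n = 3 each), which does not bear on whether it carries the mutation.

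Of the 50 lysosomal genes tested, 1 fell in mutant macrophages, the lysosomal phospholipase gene pla2g15, and 0 rose (adjusted p under 0.05, quasi-likelihood test of edgeR, Benjamini-Hochberg over all 16499 genes). Over all genes tested, 1.19% were called, 0.309% higher and 0.885% lower, so 1 of 50, or 2.0%, is near that background. At an unadjusted p under 0.05, 6 members (12%) were higher and 3 (6.0%) lower, where 7.04% and 7.17% of all genes were. DESeq2 called 2 members higher (ctsd and tpp1) and 2 lower (pla2g15 and naglu), where 2.81% and 2.84% of all genes were called; limma voom called 1 higher (ctsd) and 1 lower (pla2g15), where 0.436% and 1.03% were. The median log2 fold change (mutant over wild type) over the 50 members was 0.21, against −0.03 over all genes tested (0.13 against −0.02 without mutant replicate 1), and 31 of 50 (62.0%) were positive, against 47.9% of all genes. The 3 mutant libraries lay entirely above the 3 wild type libraries for 8 members (16.0%) and entirely below for 3 (6.0%), where 10.2% and 10.4% of all genes did so.

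**Figure D1:**
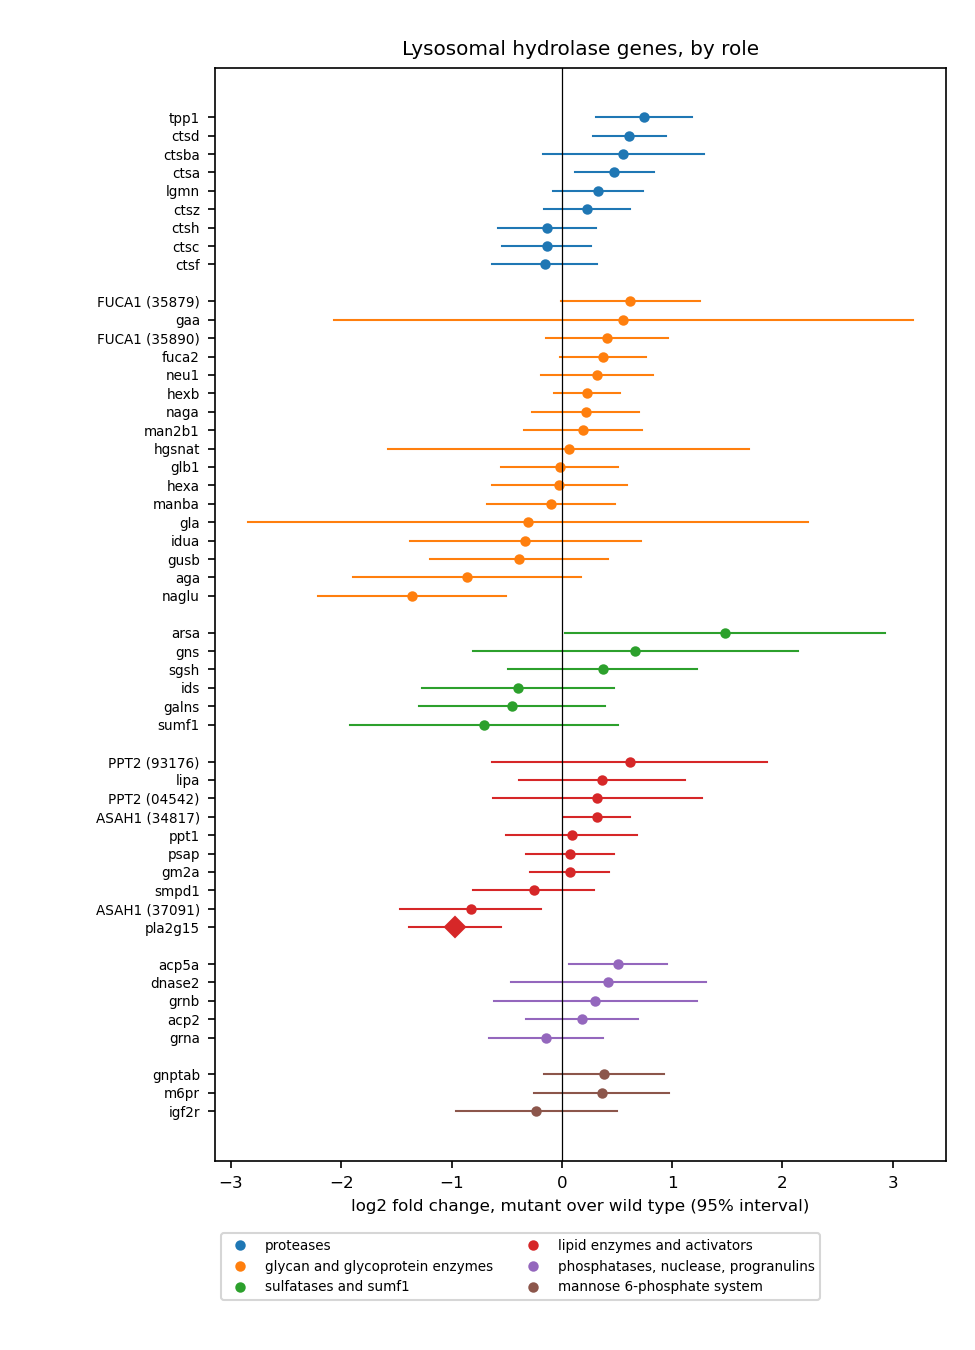
Log2 fold change of mutant over wild type for the 50 lysosomal genes tested, on the x axis, with 95% intervals as lines, ordered by role on the y axis and coloured by role; the diamond marks the gene with an adjusted p under 0.05. Only pla2g15 (log2 fold change −0.97) carries the diamond, and the widest intervals belong to gla and gaa, which have the fewest counts. Each of these also has a mutant library at 0, with 0, 29 and 20 counts for gla and 24, 0 and 84 counts for gaa.

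**Figure D2:**
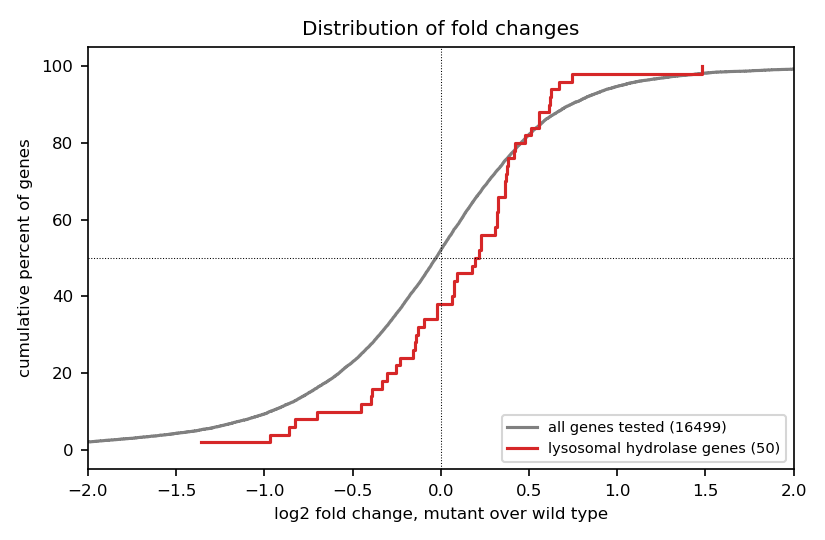
Cumulative percent of genes (y axis) against log2 fold change of mutant over wild type (x axis) for the 50 lysosomal genes in red and all 16499 genes tested in grey. The red curve crosses 50% at 0.21 and the grey curve at −0.03. The members range from −1.36 to 1.48, and the median absolute log2 fold change is 0.35 for the members and 0.40 for all genes tested.

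Among the proteases, 9 of 10 genes were tested, none was called by edgeR, 3 were higher at an unadjusted p under 0.05 and the median log2 fold change was 0.32. For this and each role below, the shares over all genes tested were 1.19% called by edgeR. At an unadjusted p under 0.05 they were 7.04% higher and 7.17% lower. The gene for cathepsin D (ctsd, ENSDARG00000057698), the main aspartic protease of the lysosome, measured 727, 1059 and 934 CPM in wild type libraries 1 to 3 and 1453, 1401 and 1301 CPM in mutant replicates 1 to 3. Every mutant library lay above every wild type library. Its means were 906 ± 168 and 1385 ± 77.1 CPM (SD, n = 3 each), a log2 fold change of 0.61 (SE 0.15, 95% interval 0.28 to 0.95) and an adjusted p of 0.0946 in edgeR's test. DESeq2 called it (adjusted p = 0.00332), limma voom gave an adjusted p of 0.0490, and the range over all alternatives was 0.00332 to 0.238.

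The gene for tripeptidyl peptidase 1 (tpp1, ENSDARG00000042793), which removes tripeptides from the ends of proteins, measured 66.2, 96.0 and 66.6 CPM in the wild type and 131, 138 and 115 CPM in mutant libraries. The groups did not overlap, and the wild type maximum was in replicate 2. On the log2 scale the change was 0.74 (SE 0.19, interval at 95% from 0.31 to 1.18), and the adjusted p was 0.118 in edgeR's test and 0.00527 in DESeq2. Cathepsin A (ctsa, ENSDARG00000098114), a carboxypeptidase that also protects β-galactosidase and neuraminidase 1, measured 68.1, 59.8 and 58.9 CPM in the wild type and 85.1, 90.1 and 84.7 CPM in mutant libraries. Again the groups did not overlap, the spread within each was small, and the log2 fold change of 0.47 (SE 0.16) had an adjusted p of 0.218 in edgeR's test.

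The remaining proteases with enough counts for a test overlapped between the genotypes. Legumain (lgmn), which cuts after asparagine and activates cathepsins, measured 375, 554 and 361 CPM in the wild type and 565, 567 and 484 CPM in mutant libraries; wild type replicate 2 reached the mutant range, and the log2 fold change was 0.32, or 0.56 without that library. Cathepsin Z (ctsz), a carboxypeptidase, measured 383, 596 and 467 against 522, 556 and 615 CPM. Cathepsin C (ctsc), which activates serine proteases of granules, measured 381, 527 and 456 CPM in the wild type and 508, 361 and 371 CPM in mutant libraries, with no direction common to the libraries. Cathepsin B (ctsba, named CTSB, ENSDARG00000055120) measured 181, 175 and 152 CPM in the wild type and 165, 176 and 408 CPM in the mutant. Its positive log2 fold change of 0.56 (SE 0.32, with adjusted p = 0.499 in edgeR's test) rested on mutant replicate 3, and without that library it was 0.01. Its paralog ctsbb (ENSDARG00000101051) was too low to be tested, with 17, 7 and 7 counts in wild type and 2, 6 and 1 counts in mutant libraries. Cathepsins F and H (ctsf and ctsh) had log2 fold changes of −0.16 (SE 0.21) and −0.13 (SE 0.20).

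**Figure D3:**
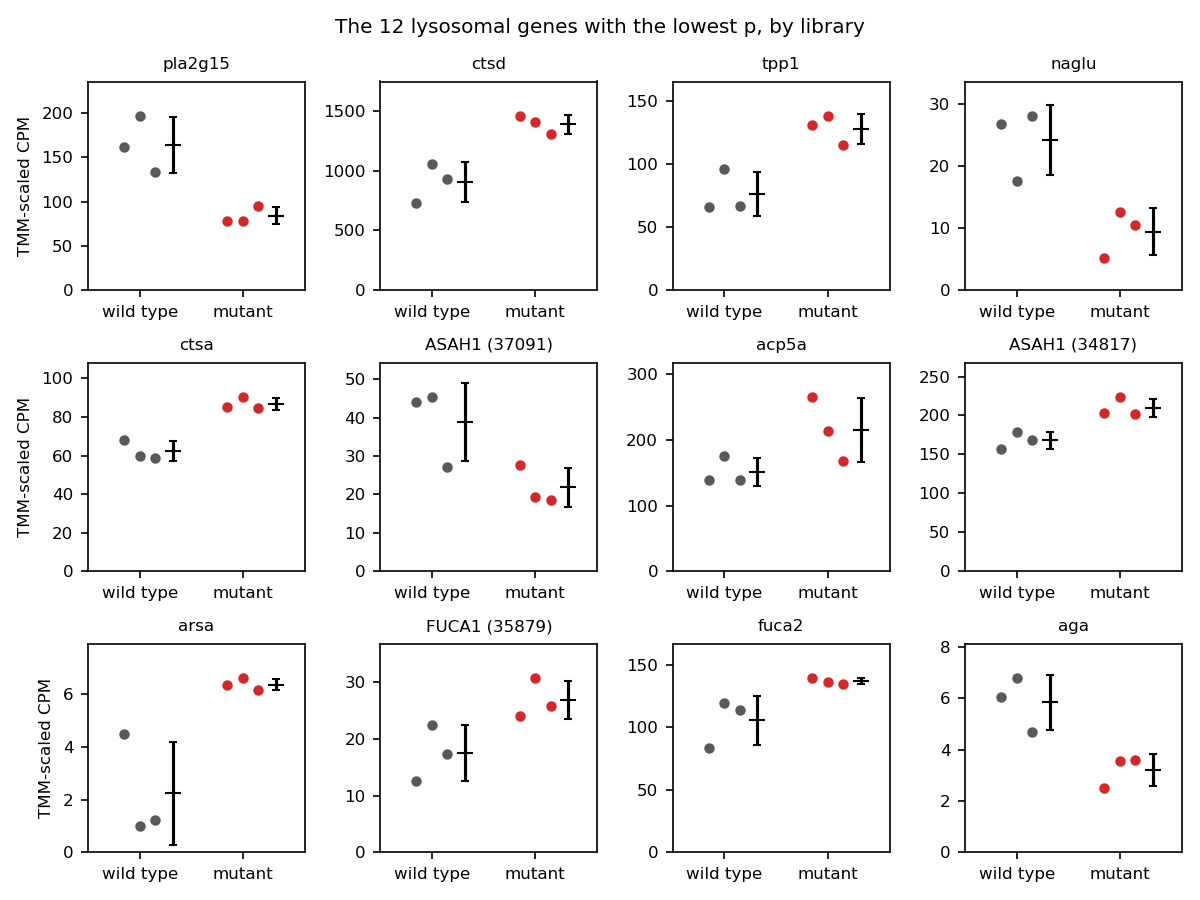
TMM-scaled CPM of the 12 lysosomal genes with the lowest p, one panel each with its own y axis starting at 0: points are libraries (grey wild type, red mutant, 3 each) and the bar beside them is the mean ± SD. The panels were chosen by low p in these same libraries, which favours groups that do not overlap. The groups overlap for ASAH1 (ENSDARG00000037091) and acp5a and not in the other 10 panels. Over all 50 members, 8 (16.0%) lay entirely above the wild type and 3 (6.0%) entirely below, where 10.2% and 10.4% of all genes did. Only pla2g15 passed the adjusted threshold.

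Among the lipid enzymes and their activators, the gene that fell was pla2g15 (named PLA2G15, ENSDARG00000103271), which encodes the lysosomal phospholipase A2 that degrades phospholipids of internal membranes and is highly expressed in alveolar macrophages of mammals. It measured 162, 196 and 133 CPM in wild type libraries 1 to 3 and 77.9, 78.6 and 94.8 CPM in mutant replicates 1 to 3. The lowest wild type library stood above the highest mutant library. The means were 164 ± 31.2 and 83.7 ± 9.56 CPM (SD, n = 3 each), a 1.95-fold lower level (log2 fold change −0.97, SE 0.18, 95% interval −1.38 to −0.55, adjusted p = 0.0472 in edgeR's test, DESeq2 adjusted p = 6.39e-05). The call was lost without any one of the 6 libraries, with an adjusted p between 0.0816 and 0.180. Its highest level was in wild type replicate 2, the library with the most heat shock counts. Without that library the log2 fold change was −0.81, and with heat shock genes left out of the fit it was −0.96 (adjusted p = 0.0497 in edgeR's test). Whether heat shock had a part in the level of pla2g15 was not tested. Scaling by library totals alone also ended the call (−0.69, adjusted p = 0.0826), a setting that raised the median of all genes from −0.03 to 0.24.

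Acid ceramidase, which splits ceramide into sphingosine and fatty acid, is represented by a pair of IDs that point in opposite directions. ASAH1 ENSDARG00000034817 measured 157, 179 and 168 CPM in the wild type and 203, 223 and 202 CPM in mutant libraries (log2 fold change 0.32, SE 0.13, with adjusted p = 0.324 in edgeR's test). ASAH1 ENSDARG00000037091 measured 44.0, 45.3 and 27.0 CPM in the wild type and 27.7, 19.3 and 18.6 CPM in mutant libraries (log2 fold change −0.83, SE 0.28, with adjusted p = 0.229). The genotypes did not overlap for the first ID and overlapped for the second, and which ID is asah1a cannot be read from the name table. Reads shared between such copies could be split in more than one way, and whether any were shared here was not tested. The sum of both IDs, most of it from ENSDARG00000034817, had a log2 fold change of 0.16 (SE 0.13). Prosaposin (psap), the precursor of the saposins, measured 810, 1175 and 795 CPM in the wild type and 836, 1016 and 1078 CPM in mutant libraries, a log2 fold change of 0.08 (95% interval −0.32 to 0.47). The genotypes overlapped for psap and for each lipid gene that follows. The GM2 activator gene gm2a varied little between libraries, at 91.6 ± 5.89 and 96.4 ± 10.2 CPM. Acid sphingomyelinase (smpd1) measured 78.1 ± 19.6 and 65.5 ± 13.3 CPM, and acid lipase (lipa), which frees cholesterol from its esters, 19.6 ± 4.23 and 25.2 ± 9.70 CPM. The palmitoyl thioesterase gene ppt1 measured 32.3 ± 9.10 and 34.3 ± 4.87 CPM, and the IDs of PPT2 summed to a log2 fold change of 0.41 (SE 0.34). Over the 10 genes of this role the median log2 fold change was 0.08.

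Of the 17 enzymes of glycans and glycoproteins, none was called by edgeR, 1 was lower and 0 higher at an unadjusted p under 0.05, and the median log2 fold change was 0.06. That 1 gene was naglu (ENSDARG00000030156), whose enzyme removes N-acetylglucosamine from heparan sulfate. Its level was 26.9, 17.7 and 28.1 CPM in wild type libraries and 5.21, 12.6 and 10.6 CPM in mutant libraries. The groups did not overlap, and on the log2 scale the change was −1.36 (SE 0.38, interval at 95% from −2.21 to −0.51); its adjusted p was 0.140 in edgeR's test and 0.0148 in DESeq2. The glycosylasparaginase gene aga was at 6.06, 6.77 and 4.68 CPM in the wild type and at 2.51, 3.57 and 3.59 CPM in mutant libraries, also without overlap and at a low count (log2 fold change −0.86, SE 0.46, with adjusted p = 0.458 in edgeR's test).

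Fucosidase genes stood on the other side. FUCA1 ENSDARG00000035879 measured 12.6, 22.5 and 17.3 CPM in the wild type and 24.2, 30.7 and 25.8 CPM in mutant libraries (log2 fold change 0.62, SE 0.28, with adjusted p = 0.360 in edgeR's test). The gene fuca2 measured 83.3, 119 and 114 CPM in the wild type and 139, 136 and 135 CPM in mutant libraries (log2 fold change 0.38, SE 0.17, with adjusted p = 0.377, and 0.24 on the log2 scale without wild type replicate 1). Neither overlapped between the genotypes, whereas FUCA1 ENSDARG00000035890, at 33.9, 56.5 and 56.3 against 55.3, 75.6 and 64.3 CPM, did. Neither β-hexosaminidase subunit gene was called: hexb measured 151 ± 8.99 and 177 ± 8.51 CPM without overlap (log2 fold change 0.23, SE 0.13) and hexa 23.9 ± 4.04 and 23.5 ± 5.75 CPM. The genotypes overlapped for hexa and for each glycan gene that follows. β-Galactosidase (glb1), at 35.8 ± 6.46 and 35.3 ± 6.19 CPM, had a 95% interval of −0.55 to 0.51. Neuraminidase 1 (neu1) measured 35.9 ± 2.54 and 44.8 ± 9.76 CPM and β-glucuronidase (gusb) 79.5 ± 24.6 and 60.8 ± 26.0 CPM. The genes gla and naga, for α-galactosidase and a related α-N-acetylgalactosaminidase, measured 2.40 ± 0.468 against 1.96 ± 1.99 CPM and 76.2 ± 19.8 against 88.5 ± 10.4 CPM. The mannosidase genes man2b1 and manba had log2 fold changes of 0.19 (SE 0.24) and −0.10 (SE 0.26). At under 6 CPM in the wild type, idua, gaa and hgsnat had standard errors of 0.46, 1.16 and 0.72, and their 95% intervals included a 2-fold difference.

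Sulfatases and sumf1, the gene of the enzyme that makes the catalytic residue of all sulfatases, were low and mixed in direction. Of 6 genes tested none was called by edgeR, 1 was higher at an unadjusted p under 0.05, 3 were positive and 3 negative, and the median log2 fold change was −0.01. Arylsulfatase A (arsa, ENSDARG00000042270), which acts on sulfatide, measured 4.49, 1.01 and 1.21 CPM in the wild type and 6.31, 6.58 and 6.14 CPM in mutant libraries. These rest on 37, 7 and 7 counts in wild type and 63, 48 and 65 counts in the mutant, and wild type replicate 1 lay apart from the other two. The log2 fold change was 1.48 (SE 0.64, with adjusted p = 0.341 in edgeR's test), the highest of all members, and 2.51 without wild type replicate 1. The heparan and keratan sulfate enzymes sgsh, ids, galns and gns had log2 fold changes of 0.37, −0.40, −0.45 and 0.67, and sumf1 had −0.70 (SE 0.54), each with adjusted p values of 0.649 or more in edgeR's test.

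Of the phosphatases, the nuclease and the progranulins, none of 5 was called by edgeR, 1 was higher at an unadjusted p under 0.05, and the median log2 fold change was 0.30. The tartrate-resistant acid phosphatase gene (acp5a, named ACP5, ENSDARG00000019763), a marker of osteoclasts and activated macrophages, measured 139, 176 and 139 CPM in the wild type and 265, 214 and 168 CPM in mutant libraries. Mutant replicate 3 lay within the wild type range, and the log2 fold change was 0.51 (SE 0.19, with adjusted p = 0.285 in edgeR's test, and 0.34 on the log2 scale without mutant replicate 1). Progranulin, a precursor of granulins that supports lysosomal enzymes, is encoded by paralogs in zebrafish. The gene grna measured 169, 324 and 206 CPM in the wild type and 229, 196 and 207 CPM in mutant libraries, and grnb 7.88, 14.3 and 7.97 against 16.7, 7.54 and 12.9 CPM. In wild type both were highest in replicate 2, and the sign for grna changed from −0.14 to 0.18 without that library. For grnb the log2 fold change was 0.30, and 0.03 without mutant replicate 1. The acid phosphatase gene acp2 measured 29.3 ± 5.34 and 33.3 ± 2.45 CPM, and dnase2, the nuclease that digests DNA of engulfed cells, 7.06 ± 0.423 and 9.45 ± 3.52 CPM.

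The mannose 6-phosphate system was tested through 3 genes, none of them called by edgeR and none with an unadjusted p under 0.05. The gene gnptab, for the enzyme that makes the tag, measured 77.2, 81.3 and 58.1 CPM in the wild type and 124, 87.6 and 70.8 CPM in mutant libraries (log2 fold change 0.38, SE 0.24, with adjusted p = 0.546 in edgeR's test, and a log2 fold change of 0.14 without mutant replicate 1). The small receptor gene m6pr measured 35.5, 33.7 and 30.3 CPM in the wild type and 31.9, 36.2 and 59.9 CPM in the mutant, where replicate 3 stood apart from the other two. The large receptor gene igf2r measured 43.2, 95.4 and 44.9 CPM in wild type, with replicate 2 apart from the others, and 42.8, 61.9 and 51.8 CPM in the mutant. All 3 overlapped between the genotypes.

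Summed over all 51 IDs, the members measured 4923, 6677 and 5281 CPM in wild type libraries 1 to 3 and 6592, 6514 and 6496 CPM in mutant replicates 1 to 3. The mutant libraries lay close together (SD 51.2 CPM) and the wild type libraries far apart (SD 927 CPM), with wild type replicate 2 above all others, so the sums overlapped. As a share of all counts the members held 0.481% to 0.552% in wild type and 0.699% to 0.729% in mutant libraries, without overlap; this share, unlike the scaled level, also moves with the counts that heat shock genes take. Divided by the summed macrophage markers without apoeb, a list whose genes went both ways, the members' sum was 1.01, 1.27 and 1.15 in wild type and 1.05, 1.01 and 1.18 in mutant libraries, and the groups overlapped. This overlap depended on leaving out apoeb. With apoeb, the markers summed to 6939, 8123 and 6912 CPM in wild type and 11037, 11116 and 11048 CPM in mutant libraries. Divided by these sums, the members were lower in every mutant library than in every wild type library. The direction depended on the markers chosen: of the 21 markers, 8 lay entirely above the wild type and 3 entirely below. Among the 3 below, csf1rb measured 126, 135 and 109 CPM in wild type and 40.8, 88.9 and 92.4 CPM in mutant libraries. When divided by any of these 3 alone, the members were higher in every mutant library than in every wild type library. The part of macrophage content in the members' levels was not tested beyond these values.

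**Figure D4:**
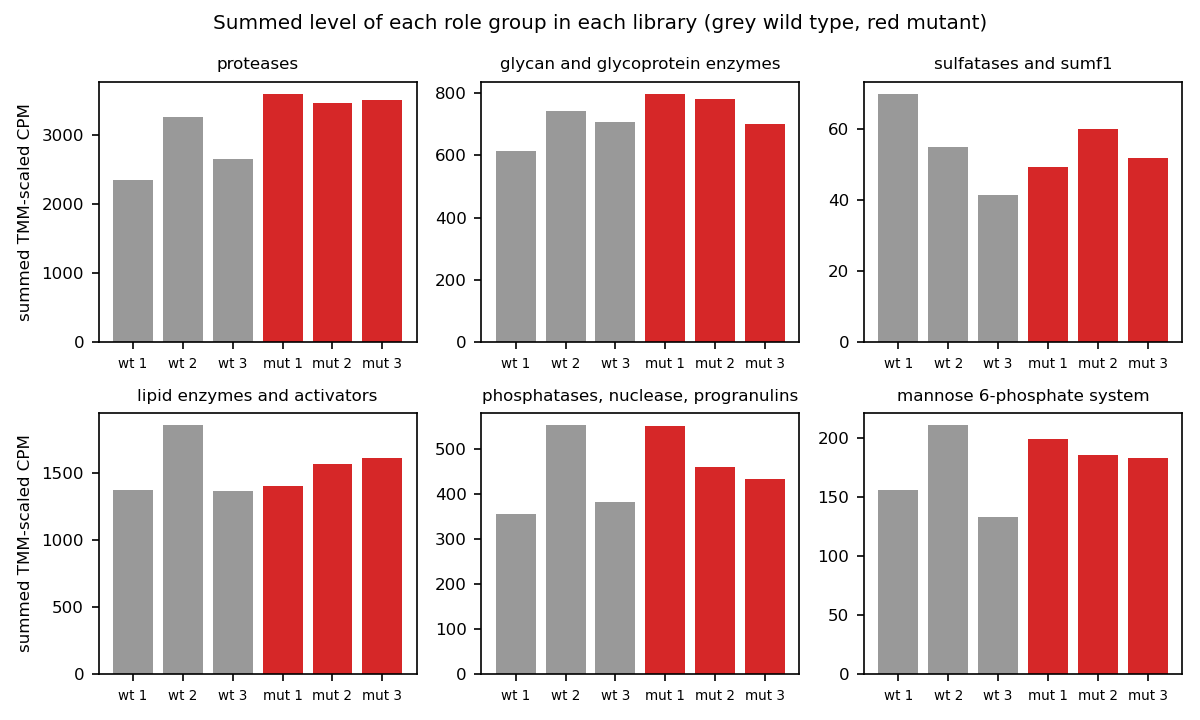
Summed TMM-scaled CPM (y axis, from 0) of the genes of each role in each of the 6 libraries (x axis; grey wild type, red mutant), one panel a role. The protease sum is 2357 to 3262 CPM in the wild type and 3461 to 3595 CPM in mutant libraries. This gap rests on ctsd, and without that gene the protease sums overlap. In the other 5 panels the genotypes overlap.

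The roles differed in how their sums lay. Proteases summed to 2357, 3262 and 2652 CPM in the wild type and 3595, 3461 and 3514 CPM in mutant libraries without overlap. Of the means of 2757 and 3524 CPM, ctsd held 906 and 1385 CPM. Without ctsd, the protease sum of wild type replicate 2 lay within the mutant range, so the genotypes overlapped. Lipid enzymes and activators summed to 1529 ± 281 and 1527 ± 112 CPM, and glycan and glycoprotein enzymes to 688 ± 66.0 and 759 ± 51.3 CPM. These are sums of counts, in which ctsd and psap weigh most, and not levels per transcript length. Within the wild type group, replicate 2 was the highest of the 3 libraries for 28 of 50 members (56.0%, against 34.0% of all genes tested), ctsd, psap, pla2g15, tpp1, lgmn and ctsz among them, whereas naglu and ctsa were not. The cause of this was not tested.

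Genes that govern or accompany the enzymes were taken from 3 lists. Among 22 tested regulators of lysosome biogenesis, 1 fell and 0 rose, where 0.885% and 0.309% of all genes did. Their median log2 fold change was 0.22. At an unadjusted p under 0.05, 3 were higher and 1 lower (7.04% and 7.17% of all genes). DESeq2 called 1 higher and 1 lower (2.81% and 2.84% of all genes), and limma voom 0 higher and 1 lower (0.436% and 1.03%). The gene that fell was TFEC (ENSDARG00000098745), a transcription factor of the MiT/TFE family to which TFEB, the main activator of lysosomal genes in mammals, belongs. Its level was 471, 463 and 417 CPM in wild type libraries and 272, 236 and 228 CPM in mutant libraries, with a wide gap between the groups. Its log2 fold change was −0.88 (SE 0.13, with adjusted p = 0.0184 in edgeR's test), and its adjusted p was 0.0451 to 0.103 with 1 library left out, under 0.05 only without mutant replicate 1. With library totals alone as scaling it was −0.61 (adjusted p = 0.0691). The other tested genes of this family overlapped between the genotypes, and none was called by edgeR. TFEB had a log2 fold change of −0.10 (SE 0.17). TFE3 had −0.35, tfe3b 0.11, MITF ENSDARG00000003732 0.99 and MITF ENSDARG00000037833 −0.32. FNIP2, a folliculin partner that acts on this family through the Rag GTPases, measured 41.3, 30.4 and 44.2 CPM in the wild type and 102, 101 and 61.9 CPM in mutant libraries (log2 fold change 1.19, SE 0.25, with adjusted p = 0.0646). LAMTOR3, a subunit of the Ragulator scaffold, had a log2 fold change of 0.64 (SE 0.24, with adjusted p = 0.264 in edgeR's test).

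Among 38 tested genes of enzyme sorting, none was called by edgeR. At an unadjusted p under 0.05, 9 were higher and 0 lower, where 7.04% and 7.17% of all genes were. Of the 38, 27 were positive, against 47.9% of all genes, and the median log2 fold change was 0.36, against −0.03. DESeq2 called 2 of the 38 higher and 0 lower (2.81% and 2.84% of all genes), and limma voom 1 higher and 0 lower (0.436% and 1.03%). The clathrin adaptor subunit AP1G1, which packs mannose 6-phosphate receptors at the Golgi, measured 74.8, 62.1 and 57.0 CPM in the wild type and 125, 103 and 146 CPM in mutant libraries. The groups did not overlap (log2 fold change 0.95, SE 0.19, with adjusted p = 0.0562 in edgeR's test, 0.000152 in DESeq2). GGA1, another adaptor for these receptors, measured 48.1 ± 9.85 CPM and, in mutant libraries, 77.1 ± 7.05 CPM (log2 fold change 0.68, SE 0.20, with adjusted p = 0.163), and SNX2, a sorting nexin of endosomes, had a log2 fold change of 0.82 (SE 0.28, with adjusted p = 0.237 in edgeR's test).

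Among 22 tested lysosomal hydrolase genes outside the members, 1 rose and 0 fell, where 0.309% and 0.885% of all genes did. This list holds ctsk and ctsla, which were left out of the members, and NAGPA, which is also in the sorting list. Its median log2 fold change was −0.02. At an unadjusted p under 0.05, 4 of its genes were higher and 1 lower (7.04% and 7.17% of all genes). The gene that rose was GLB1L (ENSDARG00000029955), a relative of β-galactosidase. Its level was 63.3, 56.2 and 57.4 CPM in wild type libraries and 127, 97.9 and 110 CPM in mutant libraries, without overlap (log2 fold change 0.92, SE 0.17, with adjusted p = 0.0406 in edgeR's test, and 0.0983 to 0.164 with 1 library left out). CPVL, a serine carboxypeptidase of macrophages, measured 105, 151 and 181 CPM in the wild type and 74.4, 82.7 and 75.7 CPM in mutant libraries (log2 fold change −0.91, SE 0.21, with adjusted p = 0.0885). DPP7, a dipeptidyl peptidase, measured 42.1, 51.9 and 56.5 against 103, 80.8 and 79.4 CPM (log2 fold change 0.81, SE 0.19, with adjusted p = 0.0946 in edgeR's test). The β-galactosidase gene glb1, described above, did not differ detectably. DESeq2 called 3 genes of this list higher and 1 lower (2.81% and 2.84% of all genes), and limma voom 1 higher and 0 lower (0.436% and 1.03%).

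The depth and spread set what could be seen. The median standard error over the members was 0.26 on the log2 scale, from 0.13 to 1.16, and for 27 of 50 members the 95% interval lay within a 2-fold change in either direction. The standard error was higher at low levels, with a median of 0.54 for the 12 members with a mean under 10 CPM and 0.23 for the other 38. The median coefficient of variation between libraries was 0.22 in wild type and 0.20 in mutant for the members, against 0.29 and 0.31 for all genes tested.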

How the data were processed

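Polyadenylated RNA of sorted macrophages was sequenced in 6 libraries, 3 per genotype, after low-input cDNA amplification. The values deposited by the authors are raw counts of reads for each Ensembl ID, not normalized; per the labels' protocols, single reads were aligned to GRCz10, with Bowtie and TopHat per the submitters' processing notes. No source used here gives the counting tool, strand handling or annotation release. The cDNA amplification can add noise, and how much it added was not tested.

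The members and lists were chosen with earlier results of these data known. Symbols were matched exactly, then in upper case, then without paralog suffix, against a table naming 26121 of 31962 IDs. With edgeR 4.0.16 (R 4.3.3), filterByExpr was applied (minimum count 10, total 15), and libraries were scaled by TMM and genes tested by two-sided quasi-likelihood tests on genotype, with Benjamini-Hochberg adjustment over 16499 genes (threshold 0.05). Standard errors are the log2 fold change over the square root of F. Levels are TMM-scaled CPM, and genotypes are compared within a gene or within a sum or ratio of sums. No transcript lengths were used, so rankings and sums over genes weigh counts and are not levels per length. No promoter sequences were used here, so the motif search laid out for them was not run. Values in all libraries are given for called members, the 12 with the lowest p and the 8 with the highest CPM. The same holds for the lowest p of each role, paralog pairs and members called under an alternative. From the other lists, called genes and the 3 lowest p are named, with GGA1, SNX2 and LAMTOR3 not given by library. Heat shock genes are given as a share of counts, and left out as an alternative, for the 102 IDs whose names start like heat shock or co-chaperone genes; the 41 IDs of the heat shock list held 9.94% to 19.0% of counts in wild type and 3.46% to 3.78% in mutant libraries. Other members were named after their values were seen.

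Alternatives were other scalings, filters, DESeq2 1.42.0, limma 3.58.1 (voom), a replicate block, heat shock genes left out, summed IDs and each library left out. Every replicate pair differed beyond sampling noise (lowest chi-square 18.3 for each gene on average), and p-values measure the spread between these pools (common biological coefficient of variation 0.441). On data simulated for mutant against wild type (16499 genes, 15367 fitted), 9% of 100 genes changed 2-fold and 50% of 100 changed 4-fold were called, with 4 unchanged genes called. The changed genes were drawn at random from all tested genes above a low expression cut. They were not drawn from the members in particular, so these shares are not the members' own.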

Additional observations from a re-analysis of the deposited data

How the results depend on the processing

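Calls depended on the test and on the number of libraries. Of the 50 members, 9 changed sign with library totals alone, 3 with limma voom, 2 with the replicate block and 2 to 5 with one library left out. Of 297 values for the 20 members described by library under the alternatives, 278 kept direction and side of the threshold, 8 lost a call, 6 gained one and 5 changed sign without a call (ctsc, grna and psap). DESeq2 gave arsa and aga no adjusted p, and both stand among the 278 as not called. In the DESeq2 counts, genes without an adjusted p were taken as not called. The count of members lower was 1, and 2 with DESeq2, 0 with library totals alone and 0 with the replicate block; the count higher was 0, and 2 with library totals alone, 2 with DESeq2 and 1 with limma voom. Without any one library 0 members were called in either direction. The members' median was 0.21 and moved to 0.48 with library totals alone, where the median of all genes was 0.24, and to 0.13 without mutant replicate 1; the gap between both medians was 0.23 and 0.24, and it was 0.15 to 0.27 with one library left out. Over all genes, 51 were higher and 146 lower; library totals alone gave 217 higher and 117 lower, DESeq2 463 and 468, and leaving out one library 3 to 11 higher and 43 to 98 lower. The labels do not say that same-numbered libraries share a day, so the replicate numbers were not used as pairs in the main fit. As a check, same-numbered libraries did not deviate together (correlations −0.02, 0.0019 and −0.03). The replicate block gave 13 higher and 84 lower genes, and pla2g15 a log2 fold change of −0.96 (adjusted p = 0.123 in edgeR's test). GLB1L had an adjusted p of 0.0828 in that fit and TFEC of 0.0468. The causes of these shifts were not tested. For the 12 members under 10 CPM the median standard error was 0.54, against 0.23 for the other 38, and what part of it was counting error was not tested.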
